A study of Mus musculus with 6 samples.

Results

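Transcripts of 44 interferon-stimulated genes were followed in the apex of mouse hearts after ischaemia and reperfusion. The genes were listed by name, as well-known interferon targets, with earlier results of these data known. All 44 were found by symbol among the 37620 genes of the deposited table. The samples were apical heart tissue of wild-type C57/BL6J mice, taken when blood flow to the heart muscle had been stopped for 30 min (ischaemia) and restored for 120 min (reperfusion). In 3 samples the mice had been given dexmedetomidine, a sedative that activates alpha-2 adrenergic receptors, at 10 µg/kg. Yohimbine blocks the same receptors, and its vehicle alone was injected into these mice 30 min ahead of dexmedetomidine, with surgery 20 min after it. In the other 3 samples the mice had received the vehicle of each drug, 1 after the other, before the same surgery, with no times given. Infusions in both groups went into the tail vein over 10 min. Age and sex are not given, and neither is whether each sample came from its own animal. The p-values therefore measure only the spread between these samples, which may be technical. The vehicle libraries are called V1, V2 and V3 and the dexmedetomidine libraries D1, D2 and D3, after the replicate numbers of the labels. Levels are CPM, counts per 1e6 gene counts after scaling of the libraries by the trimmed mean of M-values (TMM).

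Type I interferons bind the receptor made of Ifnar1 and Ifnar2, whose kinases Jak1 and Tyk2 activate the transcription factor complex ISGF3. This complex, of which Stat2 and Irf9 are subunits, binds interferon-stimulated response elements (ISREs) in the promoters of target genes. The targets include sensors of viral RNA and DNA, the enzymes that attach ISG15 to proteins, effectors that block viral RNA, entry or budding, and large GTPases, many of which are also induced by interferon gamma. In the heart the same genes are known to be expressed by resident and infiltrating leukocytes, endothelial cells, fibroblasts and cardiomyocytes.

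The ISRE core was searched in the promoters because it is what the textbook pathway acts on. RefSeq promoter windows of the build GRCm38.p6, each from 250 bases before to 50 bases after an annotated start, were at hand for 32 of the 44 genes. The 12 without a window were Mx1, Mx2, Iigp1, Parp9, Parp14, Ifi27, Rtp4, Ifi204, Oas2, Dhx58, Zbp1 and Usp18. The core searched is GAAA, any 2 bases and GAAA again, on either strand and with overlapping matches counted. It was present for 16 of the 32 genes, 50% (exact binomial 95% interval 31.9% to 68.1%), and for 3.99% of 27025 genes with a window. The interval treats the 32 genes as independent draws, although they were listed by name and include families of close copies. The shorter form GAAANNGAA was present for 18 of the 32 genes (56.3%) and for 9.76% of all genes. The core TTCNNNGAA, the palindrome of gamma-activated sequences, was present for 10 (31.3%) and for 9.55%. In 13 genes at least 1 ISRE core lay wholly before the start, 21 cores in all, between 5 and 222 bases from it. In Ifih1, Ddx58 and Ifitm3 the core lay only after the start. A match describes the letters of the window and is not evidence of binding. The following 8 stretches, which end at or before the start, are shown so that the cores can be seen beside the values of the same genes further on. Capitals mark the ISRE cores, which read GAAA, 2 bases and GAAA on the strand shown, or TTTC, 2 bases and TTTC where the core is on the other strand.
Stat2 (chr10:128270248-128270315, plus strand, 250 to 183 bases before the start): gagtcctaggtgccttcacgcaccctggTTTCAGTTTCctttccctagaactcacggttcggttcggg
Ifit1 (chr19:34640755-34640843, plus strand, 134 to 46 bases before the start): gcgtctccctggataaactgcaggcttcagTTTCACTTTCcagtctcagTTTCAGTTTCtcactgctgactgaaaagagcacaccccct
Ifit3 (chr19:34583343-34583446, plus strand, 186 to 83 bases before the start): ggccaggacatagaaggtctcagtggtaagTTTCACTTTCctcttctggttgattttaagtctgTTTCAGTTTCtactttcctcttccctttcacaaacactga
Oas3 (chr5:120777695-120777764, minus strand, 105 to 36 bases before the start): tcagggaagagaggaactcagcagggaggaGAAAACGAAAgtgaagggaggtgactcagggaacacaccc
Isg15 (chr4:156200845-156200926, minus strand, 108 to 27 bases before the start): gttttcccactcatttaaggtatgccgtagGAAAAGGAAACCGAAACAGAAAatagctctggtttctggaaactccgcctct
Rsad2 (chr12:26456533-26456602, minus strand, 150 to 81 bases before the start): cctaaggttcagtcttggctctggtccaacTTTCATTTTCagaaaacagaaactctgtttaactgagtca
Gbp7 (chr3:142530253-142530322, plus strand, 83 to 14 bases before the start): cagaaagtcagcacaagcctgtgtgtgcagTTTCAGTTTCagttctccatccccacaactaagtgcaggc
Gbp3 (chr3:142559969-142560043, plus strand, 75 to 1 bases before the start): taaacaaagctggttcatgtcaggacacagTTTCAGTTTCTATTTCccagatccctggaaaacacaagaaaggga
Isg15 carried 3 overlapping cores and Gbp3, Ifit1 and Ifit3 carried 2 each. The paired cores of Ifit1 and Ifit3 were separate, while those of Gbp3 overlapped. The 16 genes with the core had a median log2 fold change, dexmedetomidine minus vehicle, of 0.31, with 14 higher in dexmedetomidine. The 16 genes without it had a median of 0.10, with 9 higher. For the core TTCNNNGAA the split ran the other way, with a median of 0.05 for the 10 genes with it (7 higher) and 0.39 for the 22 without it (16 higher). The 12 genes without a window enter none of these medians. Of them only Ifi27 was lower, with a log2 fold change of -0.15, and the highest was Iigp1 with 1.50. The medians are descriptions of the lists and were not tested.

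Gene counts summed to 50.3 to 56.6 M in the vehicle libraries and to 42.7 to 48.6 M in the dexmedetomidine libraries. Transcripts of the mitochondrial genome made up 22.0% to 25.2% of gene counts in V1 to V3, 27.1% in D1, 36.9% in D2 and 38.2% in D3. The summed level of 7 cardiomyocyte markers (Myh6, Tnnt2, Tnni3, Actc1, Myl2, Ryr2 and Tcap) was 31555 to 44802 CPM, so the defining genes of the labelled tissue were abundant in every library. All 44 genes passed the filter on low counts, and 43 of them exceeded 1 CPM in every library. The exception was Mx1. D1 stood apart from the other libraries for these genes. Medians over role groups of the 44 genes are therefore also given without it. So are the fold changes of those of the 44 genes whose level is given in each library.

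Most of the 44 transcripts were measured at a higher mean level in the dexmedetomidine libraries, and none passed the adjusted threshold. Levels were higher for 34 genes and lower for 10 (Trim25, Irf7, Irf9, Oasl1, Isg15, Isg20, Bst2, Ifi27, Ifi35 and Tap1). The median log2 fold change of the 44 genes was 0.36, against 0.00 over all 14738 genes tested, of which 7408 were higher. The quasi-likelihood test of edgeR called 0 of the 44 genes, and 0 of 14738 (0%), at an adjusted p of 0.05, the smallest adjusted p being 0.101. At an unadjusted p of 0.05 it gave 14 of the 44 genes as higher, where 12.5% of all genes were, and 0 as lower, where 9.03% of all genes were. The 14 were Ifih1, Zbp1, Ifi204, Ifit1, Oasl2, Herc6, Parp9, Parp14, Rsad2, Gbp3, Gbp7, Iigp1, Ifi44 and Xaf1. In 10 genes all 3 dexmedetomidine libraries lay above all 3 vehicle libraries (15.6% of all genes), and in 0 genes below them (12.0%). These 10 were the same 14 less Herc6, Parp14, Rsad2 and Gbp3.

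Other tools called some of these genes at an adjusted p of 0.05. DESeq2 called 10 higher (Ifih1, Ifi204, Ifit1, Oasl2, Herc6, Rsad2, Gbp3, Gbp7, Iigp1 and Ifi44) and 0 lower, where it called 5.97% of all genes higher and 2.66% lower. With limma-voom, quality weights included, 7 were called higher (8.98% of all genes) and 0 lower (5.31%), and all 7 were among the DESeq2 calls. Without V3, edgeR itself called 5 of the 44 genes higher (Ifih1, Ifit1, Gbp7, Iigp1 and Ifi44) and 6.13% of all genes higher. The calls on single genes therefore rest on the tool and on which libraries enter.

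**Figure D1:**
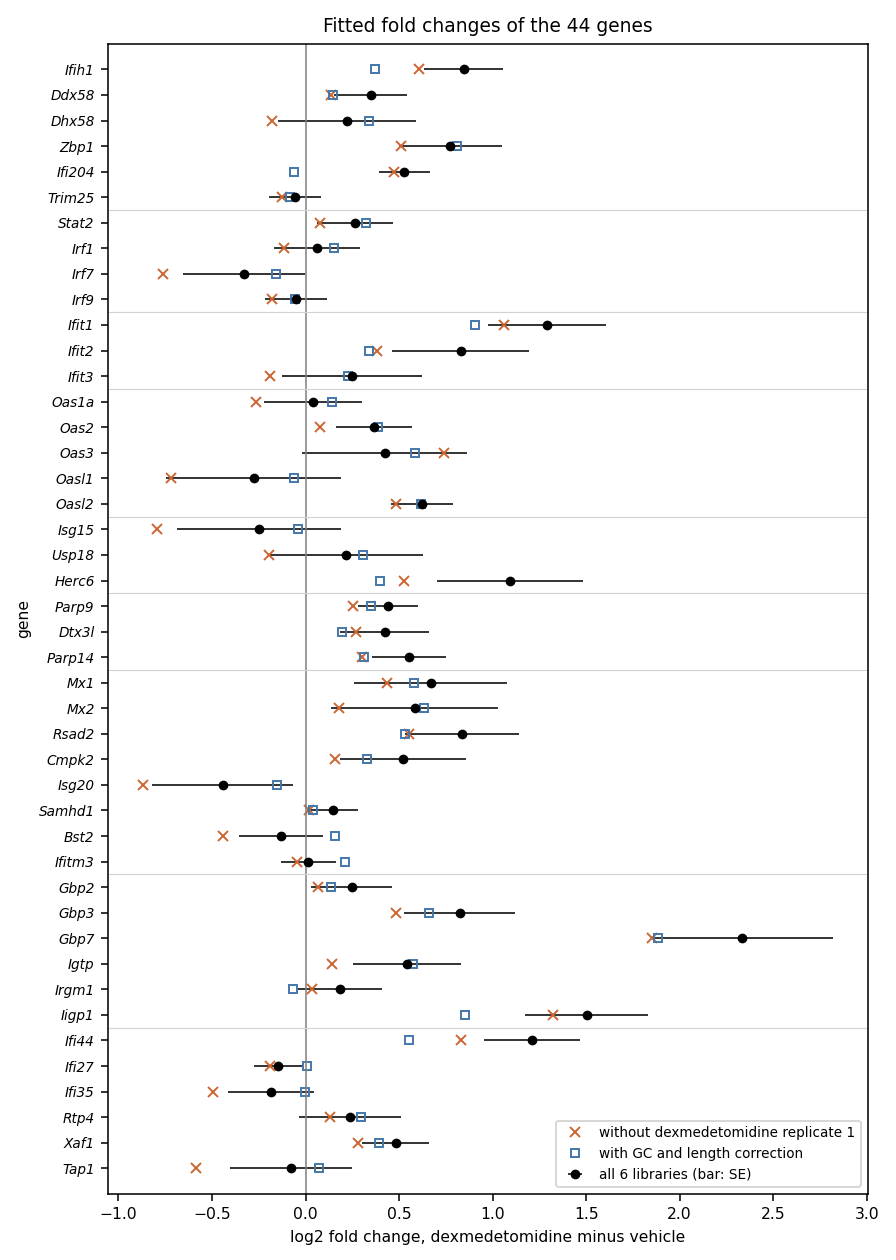
Log2 fold change of each of the 44 genes (horizontal axis, dexmedetomidine minus vehicle), in 9 groups by role separated by grey lines. Black points with bars are the fit to all 6 libraries with its SE, crosses the fit without D1, and open squares the fit corrected for GC content and length; most black points lie right of 0, with Gbp7 farthest at 2.33, and most crosses lie left of their black points.

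The dexmedetomidine libraries differed among themselves in a pattern common to most of these genes. D1 was the highest of all 6 libraries for 34 of the 44 genes, whereas it was the highest for 12.0% of all genes tested. V2 was the highest for 9 genes, where it was the highest for 26.1% of all genes, and D3 for Oas3 alone (22.4% of all genes). The 9 were Trim25, Irf7, Irf9, Oasl1, Isg15, Isg20, Ifitm3, Ifi27 and Rtp4. Among the dexmedetomidine libraries, D1 was the highest for 43 genes (38.3% of all genes), the exception being Oas3. The level was highest in D1, intermediate in D2 and lowest in D3 for 37 of the 44 genes, and for 19.7% of all genes. D1 exceeded every vehicle library for 34 of the 44 genes (28.8% of all genes), D2 for 23 (31.8%) and D3 for 12 (34.0%). D3 was below every vehicle library for 14 of them (32.3% of all genes). The median ratio to the mean of the vehicle libraries was 1.65 in D1, 1.22 in D2 and 0.927 in D3. V1 was the lowest vehicle library for 27 genes, where it was the lowest for 25.7% of all genes. V2 was the highest vehicle library for 27 genes, and the share over all genes was not computed for this count.

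The mean of the 44 genes, each taken as log2 CPM minus its own mean over the 6 libraries, was -0.43 in V1, 0.01 in V2 and -0.15 in V3. It was 0.64 in D1, 0.13 in D2 and -0.19 in D3. The group means were -0.19 ± 0.22 (SD, n = 3) and 0.19 ± 0.42 (SD, n = 3), and the groups overlapped, since D3 lay below V2 and V3. The spread within a group was wide for these genes. The median coefficient of variation was 20.4% over the vehicle libraries and 32.1% over the dexmedetomidine libraries, against 16.2% and 14.5% over all genes tested. Without D1, the median log2 fold change of the 44 genes was 0.13, 16 of them were lower in dexmedetomidine and 6 changed sign. At an unadjusted p of 0.05, edgeR without D1 gave 7 genes as higher (12.2% of all genes) and 5 as lower (11.3%). The 7 were Ifih1, Ifi204, Ifit1, Oasl2, Gbp7, Iigp1 and Ifi44, and the 5 were Irf7, Isg20, Bst2, Ifi35 and Tap1. Without D3, by contrast, 23 of the 44 genes had an unadjusted p under 0.05 in edgeR, all higher (7.80% of all genes), and 22 genes were higher without overlap (17.9%). Without V1, 8 genes had such a p, all higher (9.88%).

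**Figure D2:**
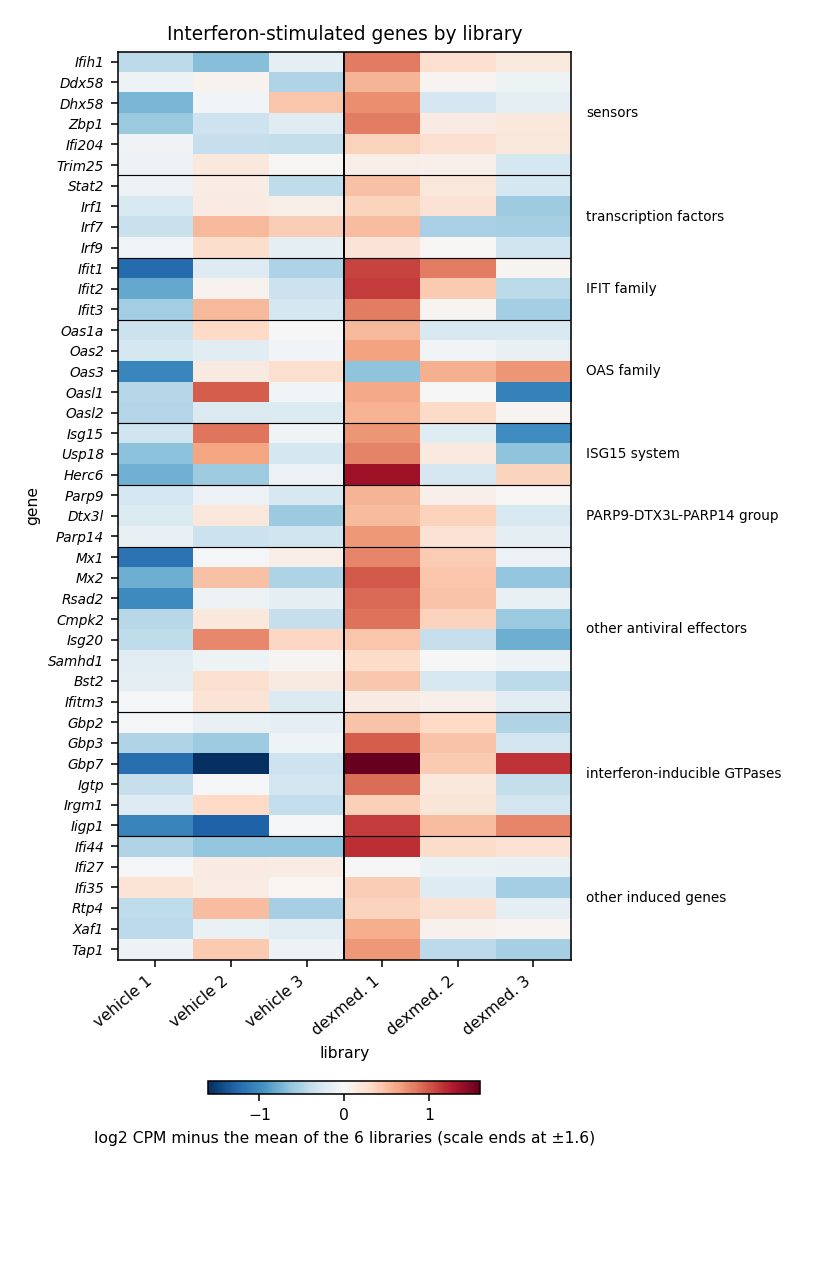
Heat map of the 44 genes (rows, grouped by role) in the 6 libraries (columns), with colour for log2 CPM minus the mean of the gene over the 6 libraries and the scale ending at ±1.6. The D1 column is red for nearly every gene and V2 is the reddest vehicle column for genes such as Isg15, Usp18 and Oasl1, which are blue in D3.

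**Figure D3:**
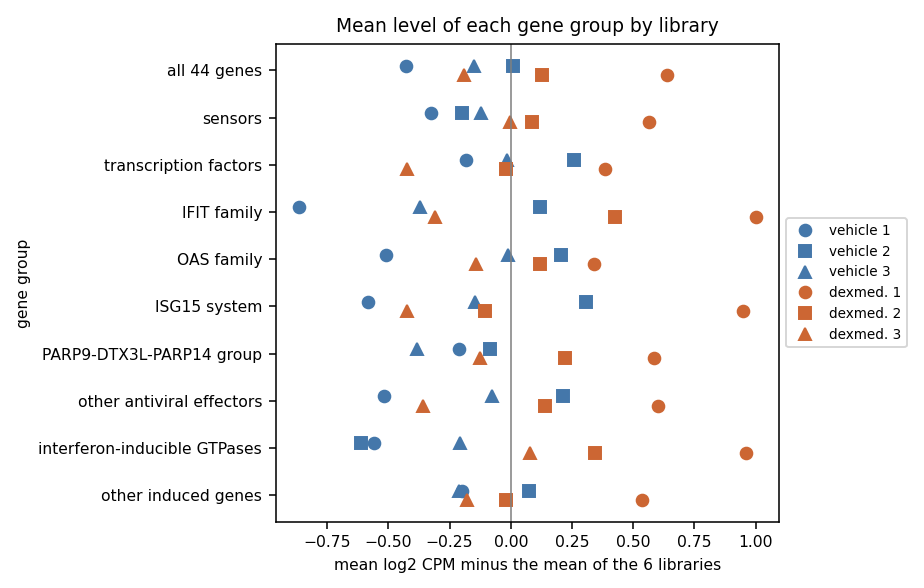
Mean level of all 44 genes and of each role group (vertical axis) by library, as mean log2 CPM minus the mean over the 6 libraries (horizontal axis), with vehicle libraries in blue, dexmedetomidine libraries in orange and the replicate number shown by the marker. D1 is rightmost in all 9 groups, and D3 lies left of at least 1 vehicle library in every group except the sensors and the GTPases.

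Sensors of foreign or misplaced nucleic acid were higher on average in dexmedetomidine for 5 of 6 genes, with a median log2 fold change of 0.44 (0.30 without D1). Ifih1 (ENSMUSG00000026896), which encodes the long double-stranded RNA sensor MDA5, was at 14.3, 11.9 and 17.4 CPM in V1 to V3 and at 34.0, 23.05 and 21.3 CPM in D1 to D3. All 3 dexmedetomidine libraries were above all vehicle libraries. Its log2 fold change was 0.85 (SE 0.21; adjusted p = 0.107 with edgeR and 0.00767 with DESeq2), and 0.60 without D1. Ifi204, a member of the p200 family that binds DNA, was at 29.2, 23.6 and 23.2 CPM in vehicle and at 39.1, 36.1 and 34.3 CPM in dexmedetomidine. The groups did not overlap, D1 stood out little, and the log2 fold change was 0.53 (SE 0.14), or 0.47 without D1. With the correction for GC content and length described below, it was -0.06 and the groups overlapped. Ifi204 has close paralogs, among which reads may be shared, so its own level is uncertain. Zbp1, the sensor of Z-form nucleic acid that can start necroptosis, was low, at 2.10, 2.52 and 2.78 CPM in vehicle and at 5.60, 3.46 and 3.57 CPM in dexmedetomidine. Its groups also did not overlap, with a log2 fold change of 0.77 (SE 0.28; adjusted p = 0.152 with edgeR), or 0.51 without D1. The RIG-I gene Ddx58 had a log2 fold change of 0.35, the LGP2 gene Dhx58 one of 0.22, and Trim25, a ubiquitin ligase that acts on RIG-I, one of -0.06, and the groups of these 3 genes overlapped.

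The 4 transcription factors of the pathway were split, with 2 higher, 2 lower and a median log2 fold change of 0.01 (-0.15 without D1). At an unadjusted p of 0.05 in edgeR, 0 were higher (12.5% of all genes) and 0 lower (9.03%). Stat2, a subunit of ISGF3, was at 43.5, 50.1 and 35.0 CPM in vehicle and at 64.1, 52.6 and 37.9 CPM in dexmedetomidine. D1 and D2 were above all vehicle libraries and D3 was not, and the log2 fold change was 0.27 (SE 0.20), or 0.08 without D1. Irf9, the DNA-binding subunit of ISGF3, was at 44.6, 55.6 and 41.5 CPM against 53.1, 46.7 and 36.9 CPM. Its log2 fold change of -0.05 (SE 0.17), or -0.18 without D1, was within the spread of the libraries. Irf7, a factor that amplifies the interferon response and is itself induced by it, was at 17.6, 32.2 and 29.7 CPM in vehicle and at 31.8, 15.7 and 15.6 CPM in dexmedetomidine. D1 was on a level with V2, D2 and D3 were below all vehicle libraries, and the log2 fold change was -0.33 (SE 0.33), or -0.76 without D1. Irf1, induced by both interferon types, differed by 0.06 on the log2 scale.

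The 3 IFIT genes, of a family that includes binders of viral RNA without the host cap structure, were each measured higher on average. Their median log2 fold change was 0.83 (0.38 without D1). Ifit1 (ENSMUSG00000034459) was at 15.4, 31.2 and 25.6 CPM in vehicle and at 76.1, 63.4 and 37.1 CPM in dexmedetomidine. The groups did not overlap. The mean was 24.0 ± 7.99 CPM (SD, n = 3) in vehicle and 58.9 ± 19.9 CPM (SD, n = 3) in dexmedetomidine, a log2 fold change of 1.29 (SE 0.32; adjusted p = 0.109 with edgeR and 0.00089 with DESeq2), or 1.06 without D1. Ifit2 was at 26.3, 48.0 and 36.4 CPM in vehicle and at 100.2, 62.0 and 34.5 CPM in dexmedetomidine. D1 and D2 exceeded all vehicle libraries but D3 lay below V2 and V3, and the log2 fold change of 0.83 (SE 0.37) was 0.38 without D1. Ifit3, whose protein binds other IFIT proteins, was at 21.6, 45.5 and 26.3 CPM in vehicle and at 56.1, 32.7 and 21.9 CPM in dexmedetomidine. The groups overlapped fully apart from D1, and the log2 fold change was 0.25 (SE 0.37) with all libraries and -0.19 without D1. Ifit3 has a near-identical copy, so its counts are uncertain. Ifit1 and Ifit3 thus differed in their values although both carry a pair of ISRE cores in the stretches shown above, and the difference between them was not tested.

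Of the 5 OAS genes, which include synthetases of the oligoadenylates that activate RNase L, 4 were higher, with a median log2 fold change of 0.37 (0.077 without D1). Oasl2, an OAS-like gene, was at 13.4, 15.9 and 16.1 CPM in vehicle and at 27.5, 23.05 and 19.3 CPM in dexmedetomidine. The groups did not overlap, and the log2 fold change was 0.62 (SE 0.16; adjusted p = 0.109 with edgeR and 0.0211 with DESeq2), or 0.48 without D1. Oas2 was at 21.7, 23.5 and 25.5 CPM in vehicle and at 41.2, 25.5 and 24.3 CPM in dexmedetomidine. D1 alone stood clear of the vehicle libraries, and the log2 fold change was 0.37 (SE 0.20) with it and 0.08 without it. Oas3 departed from the pattern of the other genes, at 1.01, 2.28 and 2.49 CPM in vehicle and 1.32, 3.08 and 3.37 CPM in dexmedetomidine. Here D1 was the lowest dexmedetomidine library and V1 the lowest of all, and the log2 fold change of 0.42 (SE 0.44) came from values that overlapped, and was 0.74 without D1. Oasl1, which lies next to Oasl2 in the RefSeq gene order, had a log2 fold change of -0.28, and Oas1a, which has close copies, one of 0.04.

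The 3 genes of the ISG15 system had a median log2 fold change of 0.22, and of -0.19 without D1. ISG15, a ubiquitin-like protein that is attached to newly made proteins, had its transcript at 13.5, 30.5 and 16.1 CPM in vehicle and at 27.3, 14.6 and 8.45 CPM in dexmedetomidine. V2 was the highest and D3 the lowest library, and the log2 fold change was -0.25 (SE 0.44), or -0.79 without D1. Usp18, which removes ISG15 and also dampens signalling at Ifnar2, was at 6.88, 16.9 and 8.98 CPM against 18.8, 12.1 and 6.99 CPM. Within each group its libraries ranked as for Isg15, but D1 was the highest of all and V1 the lowest. The log2 fold change of Usp18 was 0.22 (SE 0.41), and -0.19 without D1. Herc6, the main ISG15 ligase of the mouse, was at 5.16, 5.92 and 8.23 CPM in vehicle and at 22.6, 7.34 and 11.3 CPM in dexmedetomidine. D1 stood far above every other library, D2 lay below V3, and the log2 fold change was 1.10 (SE 0.39; adjusted p = 0.165 with edgeR and 0.0301 with DESeq2) with it and 0.53 without it.

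Parp14, Dtx3l and Parp9 are neighbours in the RefSeq gene order, and the Parp9 and Dtx3l proteins form a ubiquitin ligase complex. All 3 were higher on average in dexmedetomidine, with a median log2 fold change of 0.44 (0.27 without D1). Parp9 was at 21.6, 24.4 and 21.8 CPM in vehicle and at 38.0, 27.6 and 26.4 CPM in dexmedetomidine, without overlap, and had a log2 fold change of 0.44 (SE 0.16), or 0.25 without D1. Parp14, a mono-ADP-ribosyltransferase, was at 90.3, 77.3 and 78.8 CPM in vehicle and at 159, 115 and 88.3 CPM in dexmedetomidine. D3 lay just below V1, and the log2 fold change was 0.56 (SE 0.20), or 0.30 without D1. Dtx3l was at 29.1, 39.0 and 22.97 CPM against 48.8, 44.2 and 29.0 CPM, with overlap and a log2 fold change of 0.42 (SE 0.24), or 0.27 without D1. Adjusted p-values of the 3 genes in edgeR were 0.162, 0.156 and 0.339, in the order Parp9, Parp14 and Dtx3l.

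Among 8 other antiviral effectors 6 were higher and 2 lower, with a median log2 fold change of 0.33 (0.087 without D1). Rsad2, which encodes viperin, the enzyme that makes a chain-ending nucleotide, was at 29.5, 56.5 and 53.7 CPM in vehicle and at 112, 81.9 and 55.1 CPM in dexmedetomidine. Only D3 overlapped with the vehicle libraries, falling between V3 and V2. The log2 fold change was 0.84 (SE 0.31; adjusted p = 0.172 with edgeR and 0.0388 with DESeq2), and 0.56 without D1. Cmpk2, a mitochondrial nucleotide kinase gene beside Rsad2, was at 23.6, 35.9 and 24.9 CPM in vehicle and at 58.3, 41.5 and 21.2 CPM in dexmedetomidine. D3 was the lowest of all libraries, and the log2 fold change was 0.52 (SE 0.34), or 0.16 without D1. Mx1, which most laboratory strains including C57BL/6 carry in a defective form, was at 0.70, 1.57 and 1.71 CPM in vehicle and at 2.72, 2.10 and 1.49 CPM in dexmedetomidine. Its groups overlapped, and the log2 fold change was 0.67 (SE 0.41), or 0.43 without D1. The other values were 0.58 for Mx2, 0.15 for the dNTP-cleaving Samhd1, 0.02 for the entry inhibitor Ifitm3, -0.13 for Bst2, which tethers budding virus, and -0.44 for the exonuclease gene Isg20.

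The interferon-inducible GTPases, some of which attack the membranes around intracellular pathogens, held the largest fold changes of the 44 genes. All 6 were higher on average in dexmedetomidine, with a median log2 fold change of 0.68 (0.31 without D1), and D1 was the highest library for each. Gbp7 (ENSMUSG00000040253) was at 7.68, 4.41 and 14.1 CPM in vehicle and at 69.0, 23.8 and 39.7 CPM in dexmedetomidine. The lowest dexmedetomidine value was above the highest vehicle value. The means were 8.74 ± 4.94 CPM (SD, n = 3) and 44.1 ± 22.9 CPM (SD, n = 3), a fitted fold of 5.04 and a log2 fold change of 2.33 (SE 0.49; adjusted p = 0.101 with edgeR and 0.00767 with DESeq2). Without D1 the log2 fold change was 1.85. Iigp1 (ENSMUSG00000054072), an immunity-related GTPase, was at 28.3, 24.3 and 58.3 CPM in vehicle and at 129, 83.7 and 102 CPM in dexmedetomidine. Its groups did not overlap either, and the log2 fold change was 1.50 (SE 0.33; adjusted p = 0.101 with edgeR and 9.77e-05 with DESeq2), or 1.32 without D1. Gbp3, which neighbours Gbp7 in the RefSeq gene order, was at 16.1, 15.1 and 21.4 CPM in vehicle and at 44.04, 30.8 and 18.3 CPM in dexmedetomidine. D3 lay between V1 and V3, so the groups overlapped, and the log2 fold change was 0.82 (SE 0.30; adjusted p = 0.167 with edgeR), or 0.48 without D1. Igtp, Gbp2 and Irgm1 had log2 fold changes of 0.54, 0.25 and 0.18. The guanylate-binding and immunity-related GTPase families contain near-identical copies, so counts of single genes are uncertain.

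**Figure D4:**
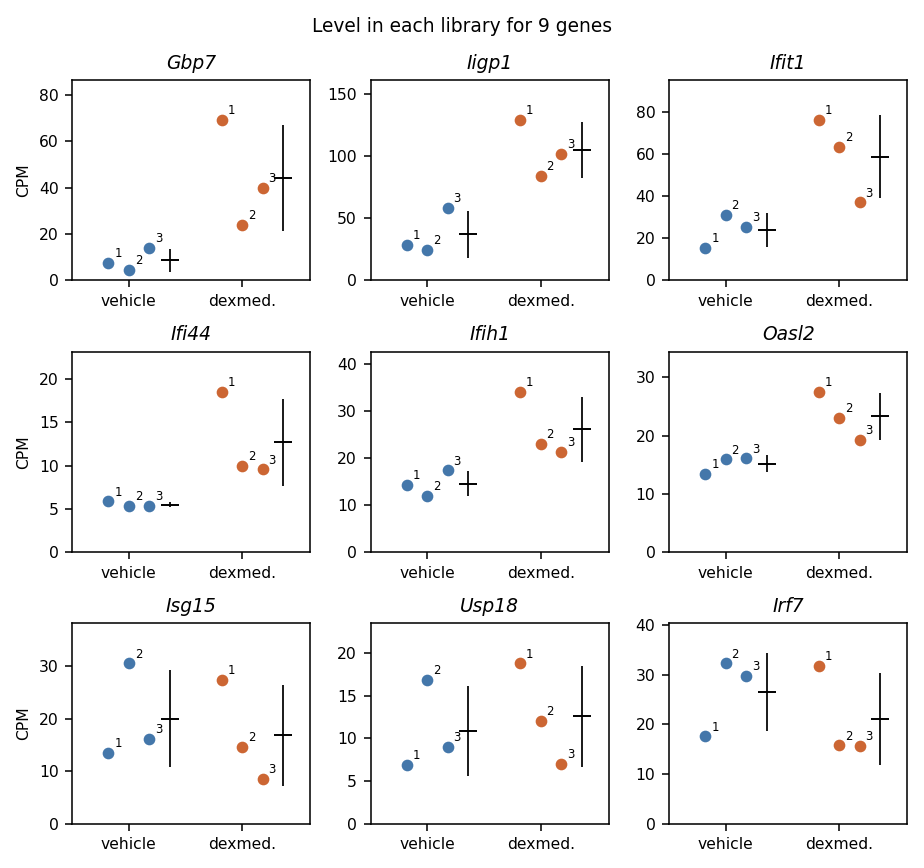
CPM (vertical axis, from 0) of 9 genes in the vehicle (blue) and dexmedetomidine (orange) libraries, numbered by replicate, with the mean and SD in black beside them. For Gbp7, Iigp1, Ifit1, Ifi44, Ifih1 and Oasl2 every dexmedetomidine point lies above every vehicle point, while for Isg15, Usp18 and Irf7 D1 and V2 are the 2 highest points and the groups overlap.

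The remaining 6 genes were split, with 3 higher, 3 lower and a median log2 fold change of 0.08 (-0.03 without D1). Ifi44 (ENSMUSG00000028037), a cytoplasmic protein gene long used as an interferon marker, was at 5.86, 5.32 and 5.31 CPM in vehicle and at 18.5, 10.0 and 9.56 CPM in dexmedetomidine. The vehicle libraries were tightly grouped and all lay below the dexmedetomidine libraries. The log2 fold change was 1.21 (SE 0.26; adjusted p = 0.101 with edgeR and 0.00104 with DESeq2), and 0.83 without D1. Xaf1, an antagonist of the caspase inhibitor XIAP, was at 13.2, 16.4 and 15.5 CPM against 26.4, 18.4 and 18.1 CPM, without overlap, with a log2 fold change of 0.48 (SE 0.18), or 0.28 without D1. Ifi27, which encodes a small membrane protein, was at 20.0, 22.4 and 22.2 CPM against 20.5, 19.0 and 18.8 CPM. D2 and D3 lay just below all vehicle libraries and D1 did not, and the log2 fold change was -0.15 (SE 0.13), or -0.19 without D1. Rtp4 had a log2 fold change of 0.24, the peptide transporter gene Tap1 one of -0.08 and Ifi35 one of -0.18, and the groups of these 3 genes overlapped.

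Per kilobase of the deposited gene length, the vehicle means of the 44 genes ran from 0.364 reads per kilobase and per 1e6 gene counts (RPKM) for Mx1 and 0.368 RPKM for Oas3 to 198 RPKM for Ifitm3. Bst2 (38.2 RPKM), Isg15 (26.5 RPKM) and Gbp2 (25.9 RPKM) followed Ifitm3. The log2 fold changes of these 4 genes were 0.02 for Ifitm3, -0.13 for Bst2, -0.25 for Isg15 and 0.25 for Gbp2. The genes with the largest fold changes were lower on this scale in vehicle, with 11.8 RPKM for Iigp1, 9.05 RPKM for Ifit1, 1.57 RPKM for Gbp7 and 0.898 RPKM for Ifi44.

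Genes upstream of these targets were read from lists of the pathway. Of 19 interferon genes, 10 were matched in the table. For 8 of them no read was counted in any library, and no library held more than 2 reads of any. Ifnb1, the early type I interferon, had 0 reads in each library, where 3 reads would be 0.0512 to 0.0771 CPM. Ifng, the type II interferon, had 1 read, in D3. All 10 matched interferon transcripts were thus under the limit of 3 reads in each library, and a difference between the groups was not detectable at this depth. The unmatched interferon genes were not read. The receptors and kinases were expressed, and 6 of 10 were higher with a median log2 fold change of 0.03, with 2 of the 10 higher (12.5% of all genes) and 0 lower (9.03%) at an unadjusted p of 0.05. Ifnar1 was at 25.4 to 28.6 CPM in vehicle and 24.6 to 29.2 CPM in dexmedetomidine, a log2 fold change of 0.04 (SE 0.13), and Ifnar2 had one of -0.11 (SE 0.14). Ifngr1, the ligand-binding chain for interferon gamma, was at 69.5 to 84.1 CPM against 91.6 to 97.2 CPM, with a log2 fold change of 0.30 (SE 0.12; adjusted p = 0.181 with edgeR) and no overlap. Jak2 differed by 0.28 (SE 0.13), and by -0.05 with the correction for GC content and length.

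Of 15 further sensors and adaptors outside the 44 genes, 2 were higher (12.5% of all genes) and 1 lower (9.03%) at an unadjusted p of 0.05, shares near those of all genes. Tlr3, the endosomal receptor of double-stranded RNA, was at 7.85, 5.52 and 8.80 CPM in vehicle and at 17.4, 13.0 and 16.1 CPM in dexmedetomidine, without overlap. Its log2 fold change was 1.07 (SE 0.21; adjusted p = 0.101 with edgeR and 0.000557 with DESeq2), and 0.97 without D1. Eif2ak2, which encodes the RNA-activated kinase PKR, was at 7.72 to 12.6 CPM in vehicle and at 30.6, 16.0 and 17.4 CPM in D1 to D3. Its log2 fold change was 1.10 (SE 0.28; adjusted p = 0.109 with edgeR and 0.00382 with DESeq2). Ticam1, the adaptor of Tlr3, had a log2 fold change of -0.37 (SE 0.17). Among 10 negative regulators tested, 2 were higher and 1 lower at the same p, against the same shares of all genes. Socs3, a feedback inhibitor of Jak kinases, was at 158, 462 and 145 CPM in vehicle and at 114, 118 and 90.3 CPM in dexmedetomidine, below all vehicle libraries. Its log2 fold change was -1.25 (SE 0.42; adjusted p = 0.146 with edgeR) and, without V2, -0.50. The phosphatase gene Ptpn2 and the SUMO ligase gene Pias1 had values of 0.38 (SE 0.15) and 0.45 (SE 0.19), which turned to -0.34 and -0.03 with that correction.

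A list of other interferon-stimulated genes, also chosen with earlier results of these data known, was read beside the 44, and 47 of its genes were tested. Of these, 35 were higher and 12 lower, with a median log2 fold change of 0.35. The median was 0.13 without D1, as for the 44 genes, and 0.19 with the correction for GC content and length, where that of the 44 was 0.31. At an unadjusted p of 0.05, 14 were higher (12.5% of all genes) and 1 lower (9.03%), and D1 was the highest library for 31 (12.0%). DESeq2 called 8 of them higher (5.97%) and 0 lower (2.66%) at an adjusted p of 0.05 (Ifi203, Ifi205, Trim30a, Slfn5, Slfn8, Gbp4, Gbp9 and Gvin1). These 8 had a low median GC content, 41.4%. Their log2 fold changes in edgeR ran from 0.58 to 2.03, and from 0.60 to 1.67 without D1. With the correction they ran from -0.39 to 1.42, so not all of them stayed higher. Gvin1, a very large interferon-inducible GTPase, was at 3.48, 1.95 and 5.31 CPM in vehicle and at 21.1, 8.49 and 14.5 CPM in dexmedetomidine, a log2 fold change of 2.03 (SE 0.42). Ifi203 had a log2 fold change of 1.45 (SE 0.26) and Slfn8, of the Schlafen family, one of 1.05 (SE 0.22), each without overlap between the groups, and both belong to families of close copies. Genes of MHC class I presentation and the immunoproteasome were higher for 4 of 12, with a median log2 fold change of -0.09, or 0.075 with the correction. The order D1, D2, D3 held for 9 of these 12 genes (19.7% of all genes). B2m, the light chain of MHC class I, was at 278 to 314 CPM in vehicle and at 382 to 450.2 CPM in dexmedetomidine, a log2 fold change of 0.48 (SE 0.12; adjusted p = 0.107 with edgeR and 0.0151 with DESeq2), or 0.03 with the correction. Erap1, which trims peptides, had a value of 0.47 (SE 0.14), or -0.07 with the correction, and Tapbp, which loads them, one of -0.35 (SE 0.14).

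GC content of the transcripts moved with the fold changes. Over all genes tested, Spearman's rho between the log2 fold change and the GC content of the longest transcript was -0.63, and over the 44 genes it was -0.80. Genes share these 6 libraries and are not independent, so no p is given. The 44 genes spanned 39.3% to 57.4% GC, with a median of 49.4% against 49.8% over all genes. The 14 genes with an unadjusted p under 0.05 had a median GC content of 43.8%, and the 10 that were lower had one of 54.7%. After a correction of each library for GC content and length, rho over the 44 genes was -0.44 and their median log2 fold change was 0.31, against -0.03 over all genes. With it, 5 of the 44 genes (Zbp1, Ifit1, Oasl2, Gbp7 and Iigp1) were higher at an unadjusted p of 0.05, where 4.89% of all genes were, and 0 were lower, where 7.77% of all genes were. EdgeR again called 0 genes at an adjusted p of 0.05. The groups did not overlap for 4 genes (Zbp1, Oasl2, Gbp7 and Iigp1), where 7.68% of all genes were higher without overlap. Corrected log2 fold changes were 1.88 for Gbp7, 0.85 for Iigp1, 0.91 for Ifit1, 0.81 for Zbp1, 0.62 for Oasl2, 0.55 for Ifi44, 0.40 for Herc6, 0.37 for Ifih1 and -0.06 for Ifi204. The values of Tlr3 and B2m were 0.43 and 0.03 after the correction. After the correction D1 was the highest of the 6 libraries for 34 of the 44 genes (12.3% of all genes). The order D1, D2, D3 then held for 35 genes and for 17.4% of all genes. The part of GC content in the differences between the groups was not tested beyond this correction.

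**Figure D5:**
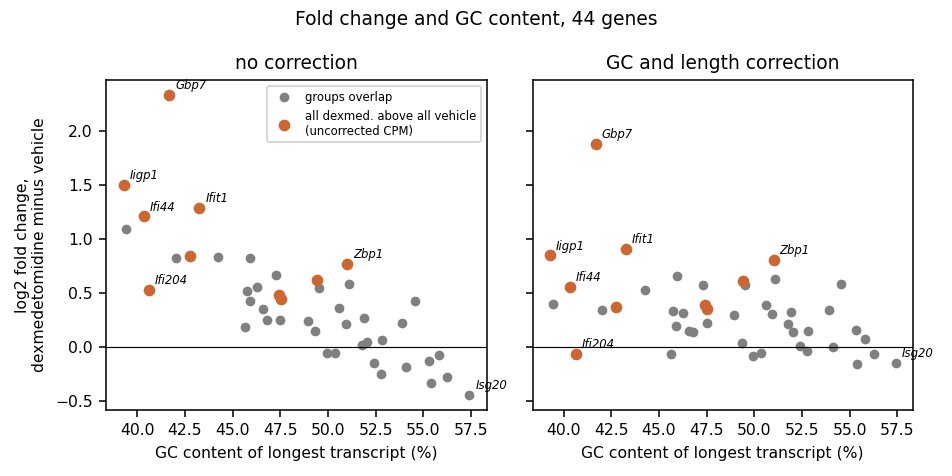
Log2 fold change (vertical axis, dexmedetomidine minus vehicle) against the GC content of the longest transcript in percent (horizontal axis) for the 44 genes, before (left) and after (right) correction for GC content and length. Orange points are the 10 genes whose dexmedetomidine libraries all exceeded the vehicle libraries before correction; the slope from high values at low GC to values near 0 or below at high GC is steep on the left (rho -0.80) and weaker on the right (rho -0.44), where Ifi204 is at -0.06 and Gbp7 at 1.88.

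Macrophage and neutrophil markers did not follow the order of the libraries seen in the 44 genes. In bulk tissue, fewer cells of a type and less RNA per cell cannot be told apart. The summed level of 9 macrophage and monocyte markers was 325 to 350 CPM in vehicle and 270.0, 303 and 379 CPM in D1, D2 and D3, and 4 of the 9 were higher on average in dexmedetomidine. The 6 neutrophil markers, all of them higher on average in dexmedetomidine, summed to 61.0 to 119 CPM in vehicle and to 46.7, 122 and 183 CPM in D1, D2 and D3. Both sums were lowest in D1 and rested largely on few genes. In D1, Lyz2 held 124 CPM of the first, and S100a8 and S100a9 held 13.3 and 16.4 CPM of the second. Of the single markers, D1 was the highest library for 1 of the 9 (Cd68, 9.38 CPM) and 0 of the 6 (12.0% of all genes). The summed level of the 44 genes was 1116 to 1409 CPM in vehicle and 2115, 1567 and 1236 CPM in D1, D2 and D3. The 6 T and NK cell markers summed to at most 0.598 CPM in vehicle and to 0.934 to 2.41 CPM in dexmedetomidine. The 4 B cell markers summed to 1.31 to 3.12 CPM in vehicle and to 1.52 to 3.44 CPM in dexmedetomidine, where D1 was the highest and D3 the lowest, as for the 44 genes. The 4 plasmacytoid dendritic cell markers summed to 16.7 to 38.7 CPM and 11.5 to 18.9 CPM, nearly all of it Irf8, while Siglech was at or below 0.222 CPM in every library. The 6 endothelial markers summed to 1014 to 1130.2 CPM in vehicle and to 976 to 1043 CPM in dexmedetomidine, and the 6 fibroblast markers to 798 to 913 CPM and 914 to 1198 CPM. Cardiomyocyte markers were lower in dexmedetomidine for 6 of 7 genes. The part of cell composition in the differences between libraries was not tested.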

How the data were processed

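Polyadenylated RNA was sequenced in 6 libraries. The authors deposited raw counts per gene with gene lengths in bases, without normalisation. The submitters' processing notes name HTSeq, Trim Galore and the build mm9. Their versions, the aligner, the annotation and whether strand was used are not stated there, so reads of overlapping genes and of near-identical copies cannot be assigned with certainty. Reads aligned to more than 1 place, 28.0% to 39.5% of all reads in the table, and 4 other rows that name no gene were left out of library sizes.

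The genes and lists were chosen with earlier results of these data known. Symbols came from a reference gene table that matched 32897 of 37620 identifiers, GC content from the longest GENCODE transcript of each gene, and promoters and gene order from RefSeq. Libraries of a group differed by more than counting noise (chi-square per degree of freedom at least 29.0), so none was taken as the same library deposited again, which leaves unknown whether they share an animal. Counts were fitted with edgeR 4.0.16 in R 4.3.3 (quasi-likelihood F test, robust, TMM, filterByExpr), with p-values adjusted by the Benjamini-Hochberg method over 14738 genes. The common biological coefficient of variation was 22.8%. DESeq2 1.42.0 and limma 3.58.1 were alternatives, beside other scalings and filters, leaving out each library, the replicate number as a block, and offsets for GC content and length (splines with 5 degrees of freedom). The fits were tested on simulated data. Library means are log2 CPM with a prior count of 2. Values per library are printed for up to 3 genes with the smallest p in each role group, with up to 3 from each pathway list, and for Ifnb1, Ifng, Ifnar1 and Ifnar2. The result for 1 further gene named by the rule is not reported here.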

Additional observations from a re-analysis of the deposited data

How the results depend on the processing

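The median log2 fold change of the 44 genes was 0.13 to 0.51 when each library was left out and 0.23 to 0.39 under every other alternative, against 0.36. Counts of calls moved more. At an adjusted p of 0.05 all genes tested and the 44 genes gave 0 and 0 calls with edgeR, 406 and 2 without a filter, 1272 and 10 with DESeq2, and 2107 and 7 with limma-voom. Leaving out each library in turn gave 0 to 1251 calls among all genes and 0 to 5 among the 44, in both cases most without V3. With each library left out, 8 to 23 of the 44 genes had an unadjusted p under 0.05 and 11 to 22 were higher without overlap. With the correction for GC content and length, 5 were higher at that p (4.89% of all genes) and 0 lower (7.77%). Then 4 were higher without overlap (7.68%).

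Groups share replicate numbers, but the labels give them no meaning, so no pairing is assumed. Over all genes tested, each library was taken as its deviation from the mean of its group. These deviations correlated at -0.05, 0.04 and 0.15 between same-numbered libraries, and at -0.19 to 0.15 between differently numbered ones. With the replicate number as a block, edgeR called 636 genes and 4 of the 44. With the block and the correction together it called 152 genes and 0 of the 44. At an unadjusted p of 0.05, 5 of the 44 were then higher (5.59% of all genes) and 0 lower (8.24%).

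Of the 44 interferon-stimulated genes, 28 had 1 sign under every alternative, and 16 changed it under at least 1 (Bst2, Dhx58, Ifi204, Ifi27, Ifi35, Ifit3, Ifitm3, Irf1, Irf9, Irgm1, Isg15, Oas1a, Oasl1, Tap1, Trim25 and Usp18). With the correction, and with the correction and the block, log2 fold changes were -0.062 and -0.055 for Ifi204, 0.010 and 0.012 for Ifi27, -0.046 and -0.038 for Jak2, -0.34 and -0.31 for Ptpn2, -0.027 and -0.036 for Pias1, and -0.073 and -0.073 for Erap1. Ifnar1 was at -0.034 with limma-voom. Leaving out each library gave -0.18 to 0.081 for Irf9, -0.19 to 0.63 for Ifit3, -0.79 to 0.19 for Isg15 and -0.19 to 0.67 for Usp18. The causes were not tested. Depth limits the 10 matched interferon genes, at 2 reads or fewer in each library, and 3 libraries a group limit the rest.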
